A study of Homo sapiens with 12 samples.

Results

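The core subunits of cohesin and of condensin I were examined in A375 cells with and without knockdown of ALKBH5. The members were taken by gene name, namely SMC1A, SMC3, RAD21, STAG1 and STAG2 for cohesin and SMC2, SMC4, NCAPD2, NCAPG and NCAPH for condensin I. All 10 were found among the 29696 genes with expression values, and all 10 passed the filter on low values that left 12985 genes for testing. Each member had a mean above 0.5 FPKM in both groups, so none passed the filter through 1 group alone.

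A375 is a human melanoma cell line, and the labels give its tissue as skin and its cell type as melanoma cells. The shALKBH5 group carried a short hairpin RNA (shRNA) against ALKBH5 and is labelled as ALKBH5 knockdown. The shCtrl group carried a control hairpin, which the paper calls Scramble, and is labelled wild type. Both groups were listed with no treatment. By the study's methods the hairpins were delivered by lentivirus from a pLKO.1-puro vector, infected cells were selected with puromycin, and both groups were harvested at the same time after infection. The stated harvest falls before the end of the stated puromycin selection, so how far the sequenced cells had been selected is not known. The ALKBH5 hairpin used for the sequenced cells is not named. Each group had 3 input libraries and 3 m6A immunoprecipitation (IP) libraries. In m6A IP, fragmented poly(A) RNA is pulled down with an antibody against N6-methyladenosine (m6A), and the input is RNA that was not pulled down. Expression was read from the input libraries as FPKM, that is, a fragment count scaled by transcript length and by the size of the library. Read counts were not used here, so the depth behind each value is unknown. The methods say in general that experiments were repeated independently, but neither they nor the labels say that the replicates of these libraries were separate cultures. The p-values therefore measure only the spread between these samples, which may be technical.

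Cohesin is a ring formed by SMC1A, SMC3 and RAD21, to which either STAG1 or STAG2 is bound. It holds sister chromatids together from S phase to anaphase and extrudes chromatin loops in interphase. Condensin I is a related ring of SMC2, SMC4 and NCAPH with NCAPD2 and NCAPG, and it compacts chromosomes in mitosis. ALKBH5 is an enzyme that removes m6A from RNA.

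The targeted gene was examined first, and here as for all genes the values of a group are given in the order of replicates 1, 2 and 3. ALKBH5 (ENSG00000091542) read 3.39, 3.92 and 3.12 FPKM with shALKBH5 and 19.3, 17.8 and 17.6 FPKM with shCtrl. Every shALKBH5 library lay far below every shCtrl library, and the mean was 19.1% of the shCtrl mean. The log2 fold change was -2.36 (SE 0.09, limma adjusted p = 1.28e-06).

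The labelled cell type was compared with marker genes. SOX10, a transcription factor of the melanocyte lineage, had means of 181 ± 0.754 FPKM with shALKBH5 and 184 ± 6.81 FPKM with shCtrl (SD, n = 3 each) and was the most abundant of the 7 melanocyte lineage markers with values. The pigment genes TYR and DCT were at or near 0 in both groups, and PMEL, which builds the fibrils of melanosomes, was at 0.611 and 0.237 FPKM. S100B rose from 32.9 to 82.1 FPKM and S100A1 from 1.86 to 4.43 FPKM, with log2 fold changes of 1.32 and 1.21 (limma adjusted p = 1.01e-06 and 4.35e-05). MITF, the lineage's master regulator, was at 1.26 and 0.777 FPKM, with a log2 fold change of 0.63 and overlapping groups. Its limma adjusted p of 0.0475 passed the threshold with all libraries, but the call depended on the settings and libraries. The adjusted p was 0.0576 after rescaling of the libraries, 0.126 with no filter, 0.0892 with a replicate block, 0.0590 without a trend, 0.148 without shALKBH5 replicate 1 (1.57 FPKM), 0.119 without shALKBH5 replicate 3 (1.31 FPKM), 0.126 without shCtrl replicate 1 (0.675 FPKM) and 0.133 without shCtrl replicate 3 (0.645 FPKM). Among markers of other cells, PECAM1 and CDH5 of endothelium and COL1A2 of fibroblasts were near 0, VWF was at 0.222 and 0.301 FPKM, and COL1A1 was at 0.552 and 0.451 FPKM. The keratin KRT10 was at 10.8 and 8.17 FPKM and KRT14 at 0.369 and 0.961 FPKM, in the order shALKBH5 and shCtrl. LYZ, the only leukocyte marker with values, rose from 0.874 to 4.82 FPKM (log2 fold change 2.34, limma adjusted p = 3.38e-06). AXL and NGFR, which mark dedifferentiated melanoma cells, fell from 80.4 to 46.1 FPKM and from 34.7 to 5.66 FPKM, with log2 fold changes of -0.80 and -2.59 (limma adjusted p = 1.44e-05 and 2.40e-07). The summed FPKM of the melanocyte markers was 269, 271 and 267 in the shALKBH5 libraries and 226, 218 and 216 in the shCtrl libraries. Of the 2 keratins tested, KRT10 was called higher. KRT14 was called lower, but was under 0.5 FPKM in shALKBH5 cells and passed the filter only through the shCtrl group, and COL1A1 only through the shALKBH5 group. The summed FPKM of the 2 keratins was 11.5, 11.2 and 10.7 with shALKBH5 and 9.53, 8.90 and 8.97 with shCtrl. The 3 endothelial markers, none above the filter, summed to 0.248, 0.249 and 0.242 FPKM and to 0.298, 0.344 and 0.388 FPKM. The summed FPKM of the fibroblast and dedifferentiation markers was 51.4, 53.2 and 52.4 against 124, 109 and 114. The part of these marker differences in the results on cohesin and condensin was not tested.

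Subunits of both rings were lower in ALKBH5 knockdown cells, and condensin I more so than cohesin by the medians. Of the 10 members, 8 passed the threshold of a limma adjusted p under 0.05, all 8 with lower values in shALKBH5. Of all 12985 genes tested, 61.0% passed the threshold in either direction and 26.2% passed it with lower values in shALKBH5. In the same 8 members every shALKBH5 value lay below every shCtrl value, as it did in 29.0% of all genes tested. The median log2 fold change was -0.85 over the 10 members, -0.69 over the 5 cohesin subunits and -1.13 over the 5 condensin I subunits, against 0.09 over all genes tested. By count, 3 of 5 cohesin subunits and 5 of 5 condensin I subunits passed, and when each library was rescaled by its median ratio to the mean library, all 5 of each complex passed. Without shALKBH5 replicate 2 only 6 members passed, without shALKBH5 replicate 3, shCtrl replicate 1 or shCtrl replicate 2 it was 7, and without shCtrl replicate 3 it was 9. Cohesin alone had 2 of 5 called without shALKBH5 replicate 2 or without shALKBH5 replicate 3, and its median was -0.46 without shCtrl replicate 2. In bulk RNA, fewer cells in which a gene is active and less RNA per cell cannot be told apart.

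**Figure D1:**
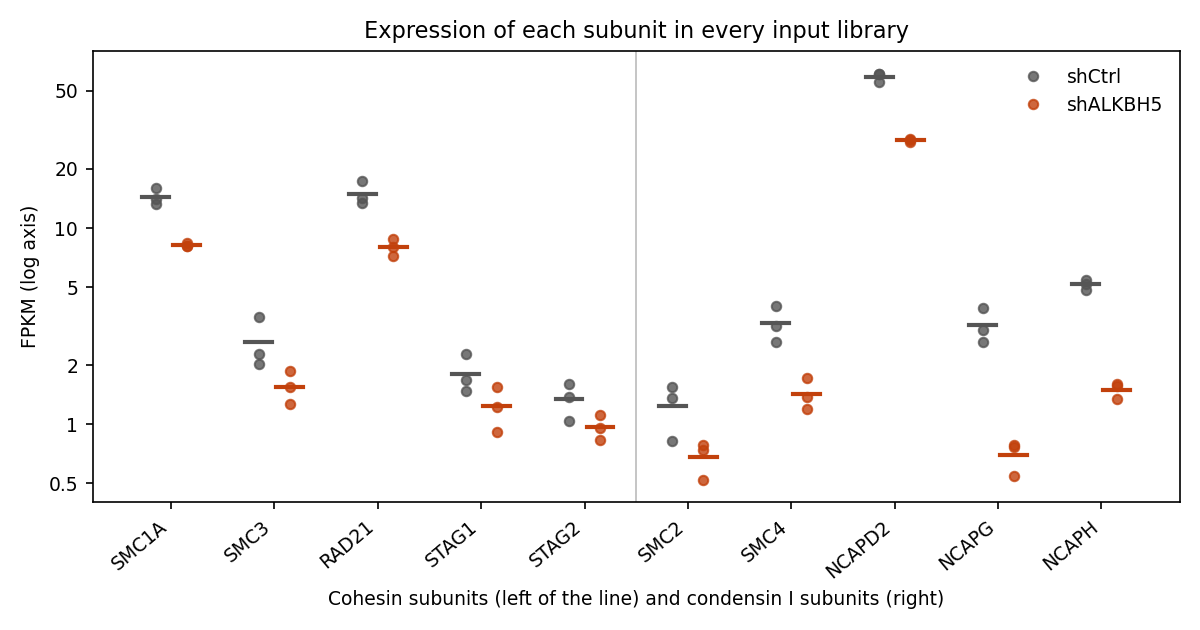
FPKM of the 5 cohesin and 5 condensin I subunits in the 3 shCtrl and 3 shALKBH5 input libraries, on a log axis, with each point a library and each bar a group mean. The groups overlap for STAG1 and STAG2 and are apart for the other 8 genes, with NCAPD2 highest at 59.1 and 28.1 FPKM.

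Among the cohesin subunits, the ATPases SMC1A and SMC3 pair at the hinge of the ring. SMC1A (ENSG00000072501, chromosome X, 53374149 to 53422728, minus strand) read 8.37, 8.13 and 8.08 FPKM with shALKBH5 and 13.3, 15.9 and 14.1 FPKM with shCtrl. The shALKBH5 values were nearly alike and all low, and the lowest shCtrl value was well above them. SMC1A fell with a log2 fold change of -0.81 (SE 0.07, limma adjusted p = 5.76e-05), to 56.8% of the shCtrl mean. SMC3 (ENSG00000108055, chromosome 10, 110567695 to 110606048, plus strand) had 1.86, 1.26 and 1.55 FPKM under knockdown and 2.28, 3.53 and 2.04 FPKM under the control hairpin. The groups did not overlap, but shALKBH5 replicate 1 came close to shCtrl replicate 3, and shCtrl replicate 2 stood above both others of its group. The log2 fold change of SMC3 was -0.69 (SE 0.22, limma adjusted p = 0.0276). Without shCtrl replicate 2 it was -0.46 and passed narrowly (limma adjusted p = 0.0485). The call was lost without shALKBH5 replicate 2 (-0.56, limma adjusted p = 0.0852) and without shALKBH5 replicate 3 (-0.69, limma adjusted p = 0.0635). It was also lost with no filter on low values (-0.69, limma adjusted p = 0.0871). Over all alternatives the adjusted p of SMC3 ranged from 0.0126 to 0.0871.

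RAD21 (ENSG00000164754, chromosome 8, 116845934 to 116874776, minus strand) is the kleisin that closes the cohesin ring and is cleaved by separase at anaphase. It read 8.84, 7.19 and 7.99 FPKM with shALKBH5 and 13.4, 17.3 and 14.2 FPKM with shCtrl. Again the groups were apart, and shCtrl replicate 2 was the highest. RAD21 fell with a log2 fold change of -0.89 (SE 0.11, limma adjusted p = 0.000349), to 53.4% of the shCtrl mean.

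STAG1 and STAG2 are alternative subunits that bind RAD21, each in its own form of the complex. STAG1 (ENSG00000118007, chromosome 3, 136336236 to 136752403, minus strand) stood at 1.55, 0.915 and 1.23 FPKM with the ALKBH5 hairpin against 1.68, 2.27 and 1.48 FPKM with shCtrl. The groups overlapped, since shALKBH5 replicate 1 exceeded shCtrl replicate 3. STAG2 (ENSG00000101972, chromosome X, 123960212 to 124422664, plus strand) read 1.12, 0.836 and 0.954 FPKM with shALKBH5 and 1.38, 1.61 and 1.04 FPKM with shCtrl. Here too shALKBH5 replicate 1 lay above shCtrl replicate 3. Neither gene passed the threshold, with log2 fold changes of -0.53 for STAG1 (95% interval -1.03 to -0.02, limma adjusted p = 0.0679) and -0.42 for STAG2 (95% interval -0.84 to -0.00393, limma adjusted p = 0.0747). The exact permutation test of the group means, two-sided, gave p = 0.2 for each. Both calls depended on the libraries and their scaling. STAG1 passed without shALKBH5 replicate 1 (-0.70, limma adjusted p = 0.0300), and STAG2 passed without shCtrl replicate 3 (-0.58, limma adjusted p = 0.0222). After rescaling of the libraries STAG1 was at -0.60 (limma adjusted p = 0.0337) and STAG2 at -0.49 (limma adjusted p = 0.0364). Over all alternatives the adjusted p ranged from 0.0300 to 0.191 for STAG1 and from 0.0222 to 0.201 for STAG2. Both are long genes, with spans of 416168 bp and 462453 bp. With 1 in place of 0.1 added to FPKM, their log2 fold changes were -0.33 and -0.25.

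The ATPases SMC2 and SMC4 form the arms of condensin I and are shared with condensin II. SMC2 (ENSG00000136824, chromosome 9, 104094260 to 104141419, plus strand) had 0.742, 0.521 and 0.783 FPKM under knockdown and 1.36, 1.54 and 0.821 FPKM under the control hairpin. It had the lowest mean of the members in both groups, but its values overlapped those of NCAPG in shALKBH5 and of STAG2 in shCtrl. Its shCtrl replicate 3 was only just above the highest shALKBH5 library. SMC4 (ENSG00000113810, chromosome 3, 160399274 to 160434954, plus strand) stood at 1.71, 1.19 and 1.38 FPKM with the ALKBH5 hairpin against 3.19, 4.00 and 2.62 FPKM with shCtrl. Its groups were clearly apart, with shCtrl replicate 2 the highest. The log2 fold changes were -0.75 for SMC2 (SE 0.25, limma adjusted p = 0.0318) and -1.13 for SMC4 (SE 0.18, limma adjusted p = 0.00113). SMC2 did not pass without shALKBH5 replicate 1 (-0.81, limma adjusted p = 0.0523), shALKBH5 replicate 2 (-0.59, limma adjusted p = 0.0955), shCtrl replicate 1 (-0.67, limma adjusted p = 0.0949) or shCtrl replicate 2 (-0.58, limma adjusted p = 0.0919). Nor did it pass with no filter on low values (-0.75, limma adjusted p = 0.0931) or with a replicate block (-0.75, limma adjusted p = 0.0565). Its adjusted p ranged from 0.00587 to 0.0955 over all alternatives. On the scale with 1 added to FPKM, its log2 fold change was -0.40.

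The other 3 condensin I subunits are NCAPD2 and NCAPG, which bind DNA through HEAT repeats, and the kleisin NCAPH, which holds them to the ring. NCAPD2 (ENSG00000010292, chromosome 12, 6493356 to 6531955, plus strand) read 28.4, 28.2 and 27.5 FPKM with shALKBH5 and 61.0, 55.7 and 60.7 FPKM with shCtrl. The libraries of each group were close together, and the shCtrl group lay far above. NCAPG (ENSG00000109805, chromosome 4, 17810979 to 17844865, plus strand) had 0.789, 0.546 and 0.766 FPKM under knockdown and 3.03, 3.93 and 2.61 FPKM under the control hairpin. NCAPH (ENSG00000121152, chromosome 2, 96335766 to 96377091, plus strand) stood at 1.57, 1.60 and 1.34 FPKM with the ALKBH5 hairpin against 4.83, 5.45 and 5.21 FPKM with shCtrl. For NCAPG and NCAPH the gap between the groups was wider than the spread within either group. NCAPD2 fell with a log2 fold change of -1.07 (SE 0.05, limma adjusted p = 2.31e-06), NCAPG with -2.04 (SE 0.18, limma adjusted p = 6.77e-05) and NCAPH with -1.72 (SE 0.09, limma adjusted p = 5.52e-06). The shALKBH5 means were 47.4%, 21.9% and 29.1% of the shCtrl means. With 1 added to FPKM the log2 fold change of NCAPG was -1.29, since a larger addition shrinks the change of a gene near 1 FPKM. For each of the 8 members whose groups did not overlap, the exact permutation test, two-sided, gave p = 0.1, the smallest that 3 libraries against 3 allow.

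**Figure D2:**
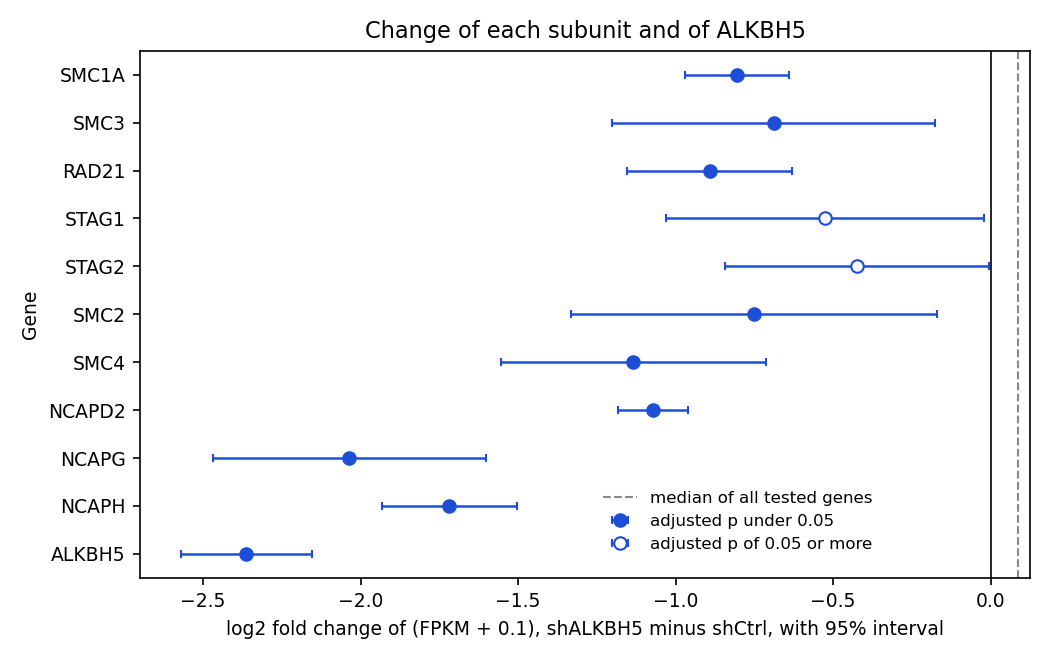
Log2 fold change of each subunit and of ALKBH5 between shALKBH5 and shCtrl input libraries (n = 3 each), with 95% intervals from limma, filled points for an adjusted p under 0.05 and a dashed line at the median of all tested genes, 0.09. NCAPG and NCAPH lie lowest among the subunits, at -2.04 and -1.72, and the open points of STAG1 and STAG2 lie nearest to 0; after rescaling of the libraries these 2 also passed the threshold.

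The promoters of the members were searched for 3 short motifs known from genes of the cell cycle, because most of these genes moved together. The motifs were the CCAAT box, the letters TTTGAA of the cell cycle genes homology region, and the E2F letters TTCCCGC or, as other forms, TTCGCGC or else TTGGCGC, each on both strands, in 250 bases before to 50 bases after the start in RefSeq (GRCh38.p14). The table of promoters held 14 entries for 9 of the 10 members. RAD21 had no entry. Each motif was found in 5 of the 14 entries (35.7%). CCAAT was found in promoters of 4 members (NCAPD2, NCAPH, STAG1 and STAG2) and in 34.6% of all 35116 promoters, a share close to that of the members' entries. TTTGAA was found for 5 members (NCAPD2, NCAPG, SMC2, SMC3 and SMC4) and in 15.2% of all promoters, and E2F letters for 5 members (NCAPG, SMC1A, SMC4, STAG1 and STAG2) and in 11.0% of all. Whether these shares differ from those of all promoters was not tested. NCAPH had neither TTTGAA nor E2F letters, while STAG1 and STAG2, which were not called, had E2F letters. A match is a description of letters and shows no binding. The windows below are shown for the 2 members with the lowest fold changes and, beside them, for 2 cohesin genes with smaller ones. Each is 30 bases, 5′ to 3′ on the gene's strand, upstream of the start, with the motif in capitals. In the NCAPG window with TTTGAA, E2F letters of the opposite strand also begin at -45, just before TTTGAA and without overlapping it.
NCAPG, TTTGAA at -35, chr4:17810932-17810961, plus strand: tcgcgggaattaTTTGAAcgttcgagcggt
NCAPG, E2F letters at -101, chr4:17810867-17810896, plus strand: ggacccatcgcTTCCCGCtctcttctccca
NCAPH, CCAAT at -112, chr2:96335642-96335671, plus strand: accccaagaagcCCAATcagacggggtcct
SMC3, TTTGAA on the opposite strand at -151, chr10:110567532-110567561, plus strand: cagaattctagaTTCAAAagaaatccacca
STAG1, E2F letters at -182, chr3:136752542-136752571, minus strand: agcggccacgtTTCCCGCcccgctggtgcg

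The levels of the subunits were then ordered. In shCtrl cells the mean FPKM was highest for NCAPD2 (59.1 ± 3.02, SD, n = 3), followed by RAD21 (15.0 ± 2.08), SMC1A (14.4 ± 1.34), NCAPH (5.16 ± 0.308), SMC4 (3.27 ± 0.695), NCAPG (3.19 ± 0.676), SMC3 (2.62 ± 0.803), STAG1 (1.81 ± 0.412), STAG2 (1.34 ± 0.287) and SMC2 (1.24 ± 0.375). The values of RAD21 and SMC1A overlapped, as did those of each neighbouring pair from SMC4 down to SMC2, so the order within these stretches was not resolved. In shALKBH5 cells the order was NCAPD2 (28.1 ± 0.502), SMC1A (8.19 ± 0.151), RAD21 (8.00 ± 0.825), SMC3 (1.56 ± 0.298), NCAPH (1.50 ± 0.141), SMC4 (1.43 ± 0.264), STAG1 (1.23 ± 0.320), STAG2 (0.969 ± 0.141), NCAPG (0.700 ± 0.134) and SMC2 (0.682 ± 0.141). In this group SMC1A and RAD21 overlapped, as did the neighbours from SMC3 to STAG2, and NCAPG and SMC2, so the places within these stretches were not resolved. NCAPG was at place 6 in shCtrl and at place 9 in shALKBH5 cells, where all its values lay below all values of STAG2 and overlapped those of SMC2. Subunits that act in equal numbers in 1 ring thus differed widely in FPKM, with NCAPD2 at 59.1 and SMC2 at 1.24 FPKM in the same shCtrl cells.

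Summed over the 5 cohesin subunits, FPKM was 21.7, 18.3 and 19.8 in the shALKBH5 libraries and 32.0, 40.7 and 32.8 in the shCtrl libraries. RAD21 and SMC1A were the most abundant of these, and their values overlapped in both groups. Summed over the 5 condensin I subunits it was 33.2, 32.1 and 31.7 against 73.4, 70.6 and 72.0, most of it from NCAPD2. Since sums follow the most abundant gene, the complexes were also compared by the mean of log2(FPKM + 0.1) over their subunits. Condensin I minus cohesin was -0.44, -0.33 and -0.35 in the shALKBH5 libraries and 0.40, 0.21 and 0.30 in the shCtrl libraries. This balance was lower in the shALKBH5 libraries, at -0.37 ± 0.06 (SD, n = 3) against 0.30 ± 0.10 (SD, n = 3), a difference of -0.68, for which no test was made. Its zero depends on the genes taken and their FPKM levels, so only the difference between the groups can be read.

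The libraries of 1 group differed among themselves in the same way for most members. In shCtrl replicate 2, 9 of 10 members had the highest value of their group, with NCAPD2 as the exception, and 40.7% of all tested genes had theirs there. In shALKBH5 replicate 1, 8 of 10 members were at the highest value of their group, against 36.0% of all tested genes, and in shALKBH5 replicate 2, 7 of 10 were at the lowest, against 35.3%. The lowest value of the shCtrl group was in replicate 3 for 6 of 10 members, against 25.1% of all tested genes. The median deviation of the members from their group mean, in log2 units, was 0.16, -0.20 and -0.00 in shALKBH5 replicates 1, 2 and 3 and -0.07, 0.28 and -0.25 in shCtrl replicates 1, 2 and 3. Over the 1299 tested genes with the longest spans (at least 139166 bp) the same medians were 0.03, -0.02 and -0.01, and -0.09, 0.11 and -0.01. In log2 units the spread was wider for SMC2 and SMC3 than for NCAPD2, SMC1A and NCAPH. FPKM summed to 221946, 223231 and 222690 in the shALKBH5 libraries and to 218966, 212760 and 217498 in the shCtrl libraries. The cause of the shared spread was not tested.

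Pairs of subunits that form a dimer or fill the same place in related rings were compared by their log2 ratio in each library. The ratio of SMC1A to SMC3 was 2.11, 2.59 and 2.31 in shALKBH5 replicates 1, 2 and 3 and 2.49, 2.14 and 2.73 in shCtrl replicates 1, 2 and 3. The groups overlapped widely, and the difference of -0.12 was within their spread (exact permutation p = 0.7, adjusted over 7 pairs p = 0.7); with single libraries left out it ran from -0.27 without shCtrl replicate 2 to 0.0208 without shCtrl replicate 3, and was -0.00260 without shALKBH5 replicate 1. With 1 added to FPKM it was -0.26. STAG1 and STAG2 also kept overlapping ratios, at 0.44, 0.12 and 0.34 in the shALKBH5 and 0.26, 0.47 and 0.47 in the shCtrl replicates, a difference of -0.10 (exact permutation p = 0.5, adjusted over 7 pairs p = 0.583). That difference was -0.0120 without shALKBH5 replicate 2, -0.18 without shALKBH5 replicate 1, -0.17 without shCtrl replicate 1 and -0.07 without shCtrl replicate 2 or 3. SMC2 over SMC4 was at -1.11, -1.06 and -0.74 in the shALKBH5 and at -1.17, -1.32 and -1.56 in the shCtrl replicates, a difference of 0.38. Each shALKBH5 value lay above each shCtrl value, so SMC4 was the lower of the pair relative to its control level.

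Condensin I and condensin II differ in their kleisin and HEAT-repeat subunits. All 3 subunits particular to condensin II by annotation fell, NCAPD3 from 14.6 ± 1.42 to 10.4 ± 0.528 FPKM, NCAPG2 from 5.07 ± 0.563 to 2.08 ± 0.178 FPKM and NCAPH2 from 7.21 ± 0.661 to 3.83 ± 0.0923 FPKM (SD, n = 3 each). Their log2 fold changes were -0.48, -1.24 and -0.89 (limma adjusted p = 0.00142, 4.09e-05 and 4.84e-05). NCAPD2 over NCAPD3 had log2 ratios of 1.42, 1.38 and 1.48 in shALKBH5 and 2.23, 1.84 and 1.98 in shCtrl replicates. NCAPG over NCAPG2 stood at -1.42, -1.67 and -1.29 against -0.58, -0.52 and -0.90, and NCAPH over NCAPH2 at -1.20, -1.22 and -1.48 against -0.71, -0.30 and -0.41. In each of these 3 pairs all shALKBH5 ratios lay below all shCtrl ratios, so the condensin I gene was the lower of the pair relative to its control level, by differences of -0.59, -0.79 and -0.83. The exact permutation p was 0.1 for each of these pairs and for SMC2 over SMC4, the smallest possible, and 0.14 after adjustment over 7 pairs, so no pair could pass the threshold under this exact test. With 1 added to FPKM, the differences of NCAPG and NCAPH from their counterparts were -0.32 and -0.54.

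**Figure D3:**
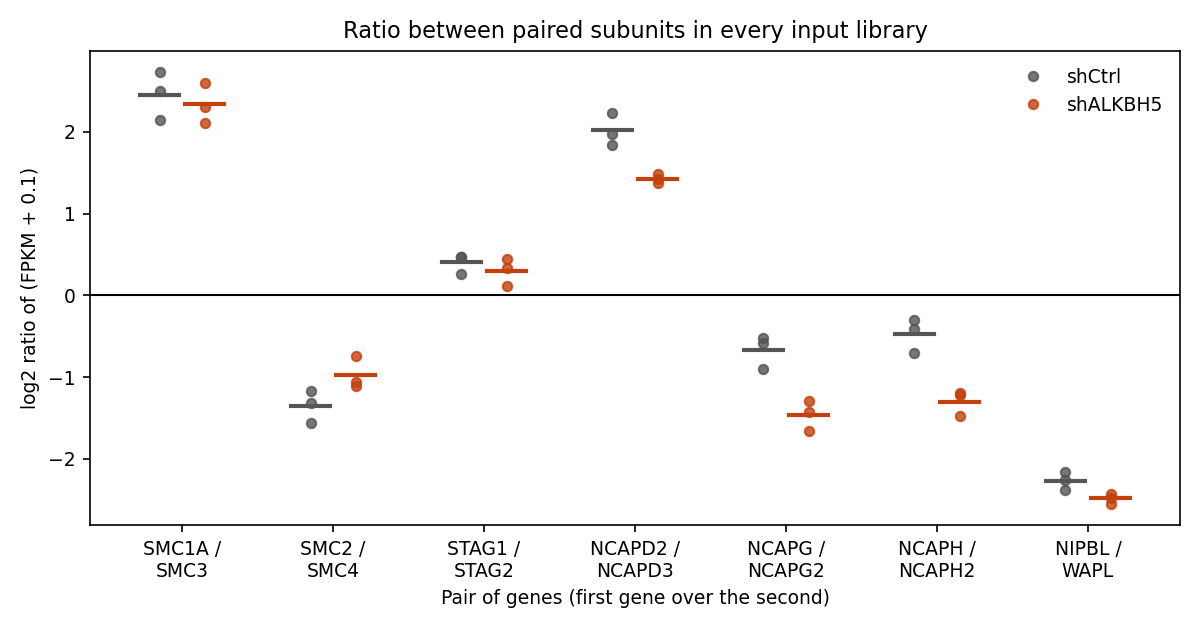
Log2 ratio of (FPKM + 0.1) between the genes of 7 pairs in each of the 3 shCtrl and 3 shALKBH5 input libraries, with each point a library and each bar a group mean. The groups are apart for NCAPD2, NCAPG and NCAPH over their condensin II counterparts, with differences of -0.59, -0.79 and -0.83, and overlap for SMC1A over SMC3 and STAG1 over STAG2.

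Genes that load, release or position cohesin had a median near that of all tested genes. Of 7 such genes, 1 was called lower and 1 higher, with a median log2 fold change of 0.04, which was -0.0289 after rescaling of the libraries and -0.0473 without shCtrl replicate 3. CTCF, which halts loop extrusion at its binding sites, fell from 7.04 ± 0.714 to 5.50 ± 0.225 FPKM (SD, n = 3 each; log2 fold change -0.34, limma adjusted p = 0.00822). MAU2, a subunit of the cohesin loader, rose from 9.17 ± 0.554 to 11.4 ± 0.391 FPKM (log2 fold change 0.31, limma adjusted p = 0.00294). NIPBL, the other loader subunit, read 0.596, 0.532 and 0.629 FPKM with shALKBH5 and 0.638, 0.834 and 0.522 FPKM with shCtrl, with a log2 fold change of -0.14, or 0.0140 without shCtrl replicate 2. WAPL, which releases cohesin from chromatin, and its partner PDS5A had log2 fold changes of 0.08 each, or -0.00401 and -0.0473 without shCtrl replicate 3 (3.15 FPKM for WAPL and 2.28 FPKM for PDS5A). PDS5B had -0.38 (limma adjusted p = 0.117) and HDAC8, the deacetylase of SMC3, 0.04, which turned to -0.0289 after rescaling. The ratio of NIPBL to WAPL differed by -0.22 between the groups (exact permutation p = 0.1, adjusted over 7 pairs p = 0.14), or by -0.13 with 1 added to FPKM. The meiotic cohesin genes REC8 and STAG3 were at 0.261 and 0.0344 FPKM in shALKBH5 and 0.141 and 0.0182 FPKM in shCtrl cells and were below the filter, and SMC1B and RAD21L1 were not analysed here.

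Genes that establish cohesion at replication forks were mostly lower, with 7 of 8 tested genes called lower and none higher (median -0.94). CHTF18, of the clamp loader that acts in cohesion, fell from 3.94 to 1.25 FPKM (log2 fold change -1.58), the fork protection factor TIMELESS from 12.8 to 4.94 FPKM (-1.36), and CHTF8, the partner of CHTF18 and the most abundant of the list, from 38.9 to 22.2 FPKM (-0.80). ESCO1, an acetyltransferase of SMC3, was the exception, with a log2 fold change of 0.22 (limma adjusted p = 0.468). All 10 tested genes of the list for cohesion protection and cleavage were called lower, with a median of -1.67. Among these CDCA8, a subunit of the chromosomal passenger complex, fell from 24.8 to 5.66 FPKM (-2.11), ESPL1, the separase that cleaves RAD21, from 7.07 to 1.71 FPKM (-1.98), and PTTG1, the securin that holds separase inactive, from 57.4 to 32.2 FPKM (-0.83). The limma adjusted p of these 6 genes ranged from 8.44e-07 for CDCA8 to 3.85e-05 for CHTF8.

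Of 6 genes whose proteins act with condensin on mitotic chromosomes, 5 were called lower and 1 higher, with a median of -1.71. TOP2A, which decatenates DNA, fell from 6.02 ± 1.40 to 1.36 ± 0.283 FPKM (SD, n = 3 each; log2 fold change -2.06, limma adjusted p = 9.75e-05). MKI67, which coats mitotic chromosomes, fell from 10.8 ± 1.97 to 2.88 ± 0.302 FPKM (-1.86, limma adjusted p = 2.41e-05), and the chromokinesin KIF22 from 19.8 ± 1.97 to 6.52 ± 0.122 FPKM (-1.58, limma adjusted p = 3.06e-06). AKAP8, an anchoring protein that binds chromatin, was called higher, at 12.2 ± 0.316 against 10.2 ± 0.126 FPKM (0.25, limma adjusted p = 0.00197). TOP2B, named because its call depended on the settings, with a log2 fold change of -0.60 (limma adjusted p = 0.0223), was not called with no filter (limma adjusted p = 0.0732), nor without shALKBH5 replicate 2 (-0.44, limma adjusted p = 0.0618), shCtrl replicate 1 (-0.58, limma adjusted p = 0.0596) or shCtrl replicate 2 (-0.46, limma adjusted p = 0.0613).

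The SMC5/6 complex, the remaining SMC ring of human cells, acts in DNA repair. Of its 7 tested genes, 1 was called lower, and the median was -0.22. NSMCE4A fell from 5.67 ± 0.119 to 4.72 ± 0.151 FPKM (SD, n = 3 each; log2 fold change -0.26, limma adjusted p = 0.00486). The most abundant, NSMCE1, was at 12.3 FPKM in shCtrl and 12.9 FPKM in shALKBH5 cells, with a log2 fold change of 0.07 that turned to -0.00815 after rescaling. The subunits SMC5 and SMC6 themselves were at -0.22 and -0.24 and did not pass (limma adjusted p = 0.376 and 0.299). Without shCtrl replicate 2 the median of the list was -0.06, and without shALKBH5 replicate 2 it was -0.08.

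Lists of cell cycle genes gave the setting of these values. All 15 tested genes of the S phase list were called lower, with a median of -1.57, and all 17 of the G2/M list, with a median of -1.80. RRM2, a subunit of ribonucleotide reductase, fell from 22.9 to 6.99 FPKM (log2 fold change -1.70), GINS2 of the replicative helicase from 11.2 to 3.41 FPKM (-1.69) and MCM7, its most abundant member in this list, from 85.3 to 27.0 FPKM (-1.65). In the G2/M list CENPF of the kinetochore fell from 1.89 to 0.345 FPKM (-2.16, or -1.09 with 1 added to FPKM), UBE2C of the anaphase-promoting complex pathway from 72.5 to 17.1 FPKM (-2.08) and its activator CDC20 from 131 to 36.7 FPKM (-1.83). Their limma adjusted p ranged from 3.95e-07 for RRM2 to 0.000271 for CENPF. The medians of cohesin and condensin I were -0.69 and -1.13. They thus lay between the median of all tested genes and those of the cell cycle lists. Single genes of the S phase list ranged from -1.70 to -0.65, which held SMC1A, SMC3, RAD21, SMC2, SMC4 and NCAPD2. STAG1 and STAG2 lay above that range, and NCAPG and NCAPH were within the range of the G2/M list. CENPF, ASPM, HMMR and TTK of that list were under 0.5 FPKM in shALKBH5 cells and passed the filter only through the shCtrl group. The other 13 genes of the list, all called lower, had a median of -1.80 and ranged from -2.08 to -1.26, and this range also held NCAPG and NCAPH. In the other lists, apart from the marker genes given above, SGO1, PDS5B and SMC6 were tested with a mean under 0.5 FPKM in shALKBH5 cells alone, and ESCO1 with one in shCtrl cells alone.

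The housekeeping list was not uniform. Of its 9 genes, 5 were called lower, and others were called higher, with a median of -0.24. GAPDH, the most abundant, was at 3658 FPKM in shALKBH5 and 3787 FPKM in shCtrl cells and did not pass (-0.05, limma adjusted p = 0.367). ACTB fell from 969 to 546 FPKM (-0.82, limma adjusted p = 8.89e-06). TBP and RPLP0 were called higher (0.56 and 0.33, limma adjusted p = 0.000596 and 0.000658).

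**Figure D4:**
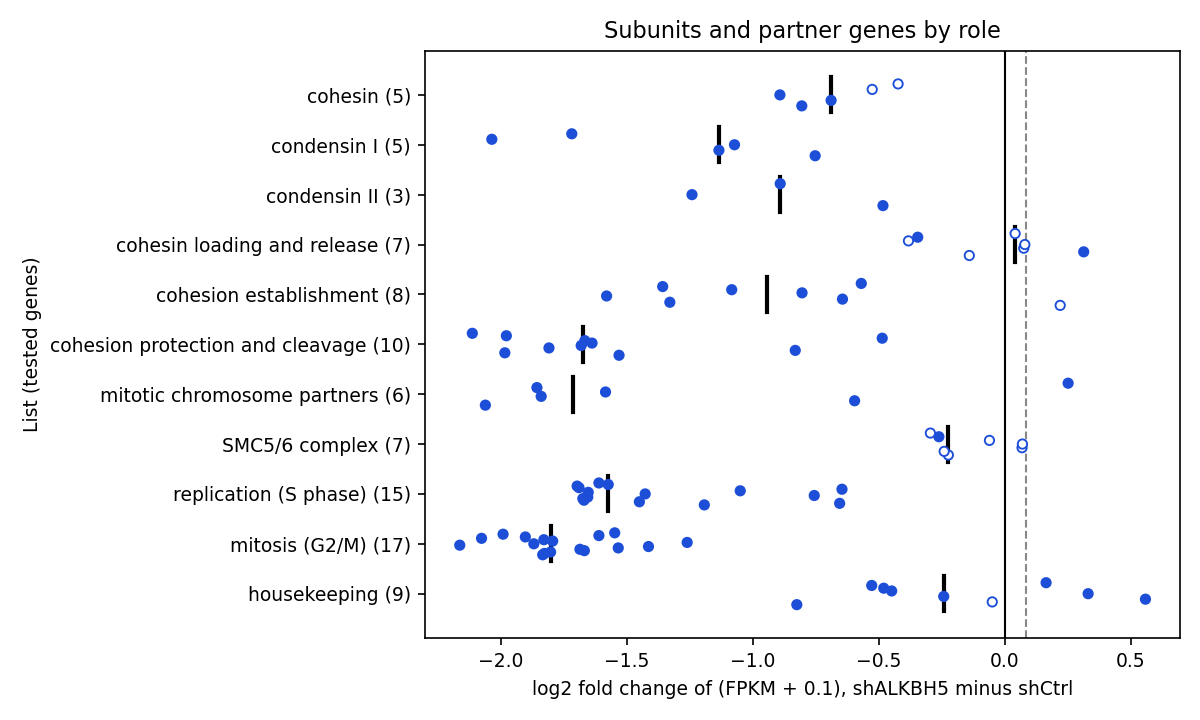
Log2 fold change of each tested cohesin and condensin I subunit and of the tested genes of 9 lists, with filled points for an adjusted p under 0.05, a short black bar at the median of each list and a dashed line at the median of all tested genes. The cohesin and condensin I medians, -0.69 and -1.13, lie between those of the cohesin loading and release list (0.04, or -0.0289 after rescaling) and of the G2/M list (-1.80).

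For each member the tested gene with the nearest profile over the 6 input libraries was found, by the root mean square difference of centred log2(FPKM + 0.1). Such a gene exists for any profile, and how small a difference is usual was not examined. NCAPD2 was nearest to CCNE1, the cyclin of the G1 to S transition (difference 0.0270), and NCAPG to CENPI of the inner kinetochore (0.0578). SMC4 was nearest to ARHGAP11A (0.0727), NCAPH to SNX6 (0.0414) and SMC2 to MPHOSPH9 (0.104). Of the cohesin subunits, SMC1A was nearest to LSM11 (0.0351), SMC3 to KMT5AP1 (0.0669), RAD21 to LRRFIP1 (0.0435), STAG1 to MIER3 (0.0809) and STAG2 to the chaperone HSP90AA1 (0.0353). CENPI and MPHOSPH9 were under 0.5 FPKM in shALKBH5 cells and passed the filter only through the shCtrl group.

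Some members overlap other genes, and whether the counting used the strand is not stated, so reads in the shared stretches cannot be told apart. NCAPD2 shares 486 bp with MRPL51 on the opposite strand, which was at 86.7 FPKM in shALKBH5 and 83.3 FPKM in shCtrl cells. STAG1 shares 1661 bp with PCCB on the opposite strand (11.2 and 8.98 FPKM), and RAD21 shares 3530 bp with UTP23 (1.53 and 1.24 FPKM). SMC4 shares 2510 bp with TRIM59 and 607 bp with IFT80, and NCAPG shares 3667 bp with LCORL, all on the opposite strand and all at or below 1.22 FPKM. SMC4 also shares 35681 bp with AC079594 on the opposite strand (0.0541 and 0.0394 FPKM). On the same strand STAG1 shares 730 bp with AC117382 (1.40 and 1.36 FPKM), while STAG1 itself was at 1.23 and 1.81 FPKM. STAG2 shares 145330 bp with SH2D1A and 90615 bp with TEX13D on its own strand and 46762 bp with TENM1 on the other, with a mean of at most 0.286 FPKM in either group.

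The m6A peaks of the members were read from 1 peak list per group, with no value for single libraries, and their spread between replicates is unknown. The shALKBH5 list held 38 peaks in the members and the shCtrl list 37, with at least 1 peak in each member in each list. SMC4 had the most, with 10 peaks in the shALKBH5 and 7 in the shCtrl list, and RAD21 the fewest, with 1 in each. Counting an overlap of 1 bp or more within a strand, 33 of the 38 shALKBH5 peaks overlapped a shCtrl peak (86.8%, exact 95% interval 71.9 to 95.6%), against 78.1% of the whole list. Of the 37 shCtrl peaks, 30 overlapped a shALKBH5 peak (81.1%, exact 95% interval 64.8 to 92.0%), against 81.3% of the whole list. Both shares were near those of the whole lists. The intervals cover counting error only, and peaks of 1 gene are not independent.

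By the authors' annotation, 17 member peaks of each list lay in a 3′UTR, which is 44.7% and 45.9% of the member peaks and close to the 45.5% and 46.2% of the whole lists. Coding exons held 11 of 38 shALKBH5 peaks (28.9%, exact 95% interval 15.4 to 45.9%) and 10 of 37 shCtrl peaks (27.0%, exact 95% interval 13.8 to 44.1%), against 13.3% and 13.4% of the whole lists. The exonic peaks came from SMC1A, SMC2, SMC3 and SMC4, the genes of the long coiled-coil ATPases. In the shALKBH5 list 7 member peaks were in a 5′UTR and 3 in an intron, and in the shCtrl list 9 and 1. The label was not always in keeping with the place of the peak in the gene. The RAD21 peak (chromosome 8, 116848983 to 116849132 in the shCtrl list) is annotated as 5′UTR, yet its centre lies 89.2% of the way along the gene. The first SMC4 peak annotated as 3′UTR in the shALKBH5 list has its centre 36.8% of the way along the gene. A peak can also span introns, and 1 STAG2 peak of the shALKBH5 list, with no overlap in the shCtrl list, covers 319952 bp.

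Where a member peak of one list overlapped a single peak of the other and the reverse held too, the fold enrichment of IP over input was set side by side. Among 26 such pairs of member peaks, 16 had the higher fold enrichment in the shALKBH5 list (61.5%), against 45.8% of all 23026 such pairs. The ratio of shALKBH5 to shCtrl had a median of 1.08 and ran from 0.640 to 3.63 over the member pairs. Over all pairs in genes called lower in the input, 48.6% were higher in the shALKBH5 list, and over those in genes called higher, 40.5%. In 24 of the 26 member pairs (92.3%) the log10 p of the peak caller was nearer to 0 in the shALKBH5 list, as it was in 52.2% of all pairs and in 82.1% of those in genes called lower in the input. How the replicates were joined for either list is not given in the sources used here, and none of these differences was tested.

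In 6 of the 26 member pairs (23.1%) the fold enrichment was at least 2 times higher in the shALKBH5 list, against 7.43% of all pairs and 6.84% of those in genes called lower. Of these 6 pairs, 5 were in condensin I genes and 1 in SMC1A. In 4 of them both peaks met the stricter limits (FDR at most 0.01, fold enrichment not under 2). These were 4 of the 15 member pairs with both peaks within those limits, against 1090 of 15974 over all pairs. In each of the 6 pairs the log10 p of the peak caller was nearer to 0 in the shALKBH5 list. NCAPG had a 3′UTR peak with a fold enrichment of 17.1 in the shALKBH5 list (chromosome 4, 17843758 to 17843938) and 5.43 in the shCtrl list (17843609 to 17843968). NCAPH had 10.2 against 3.00 (chromosome 2, 96373595 to 96373864 in the shALKBH5 list) and 8.57 against 3.13 further downstream (96376224 to 96376434), where the shALKBH5 peak did not reach that FDR. An SMC4 peak annotated as 3′UTR had 12.2 against 3.36 (chromosome 3, 160411965 to 160412834 in the shALKBH5 list). An SMC4 peak in the 5′UTR had 7.35 against 2.16, with an overlap of 1 bp between the lists and without reaching that FDR in either. Other pairs in condensin I genes were lower in the shALKBH5 list, with ratios of 0.783 in SMC2, 0.726 and 0.936 in SMC4 and 0.804 in NCAPD2. Input FPKM of NCAPG, NCAPH and SMC4 was lower in shALKBH5 cells, and the part of the lower input in the ratio was not tested. NCAPD2, the most abundant member, had a peak at its start with 14.3 and 14.2 (chromosome 12, 6493506 to 6494075 in the shALKBH5 list), labelled intronic in one list and 5′UTR in the other.

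Of the 12 pairs in cohesin genes, 6 were higher in the shALKBH5 list, with a median ratio of 1.03, and of the 14 in condensin I genes, 10 were higher, with a median ratio of 1.29. No test of this difference was made. SMC1A had a 3′UTR peak at 11.0 in the shALKBH5 and 7.40 in the shCtrl list (chromosome X, from 53374149) and a peak over its first exons at 5.72 and 2.62, with a shorter 3′UTR peak at 2.83 and 1.85. Its exonic peaks from 53396318 and from 53409093 were at 3.67 and 3.41 and at 4.23 and 3.93. SMC3 had exonic peaks at 6.81 and 6.89 and at 4.99 and 5.30, in the order shALKBH5 and shCtrl. RAD21 had 1.43 and 1.56, STAG1 3.37 and 4.95 in an intron, and STAG2 3.52 and 3.27 at its start. The lowest ratio of all member pairs, 0.640, was that of a further STAG2 peak in the 5′UTR by annotation, at 4.90 and 7.66. A deposited table of 6513 compared peaks lists 3 member peaks, 1 each in NCAPH (96373595 to 96373864), SMC4 (160423535 to 160430801) and SMC2 (104120058 to 104129780). Peaks of that table overlapped 5 of the 38 member peaks of the shALKBH5 list (13.2%) and 3 of the 37 of the shCtrl list (8.11%), against 15.8% and 16.1% of the whole lists. For cohesin it was 0 of 16 (exact 95% interval up to 20.6%) and 0 of 15 (up to 21.8%), so these intervals held the shares of the whole lists. For condensin I it was 5 of 22 (22.7%, exact 95% interval 7.82 to 45.4%) and 3 of 22 (13.6%, exact 95% interval 2.91 to 34.9%). These intervals held the shares of the whole lists too.

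**Figure D5:**
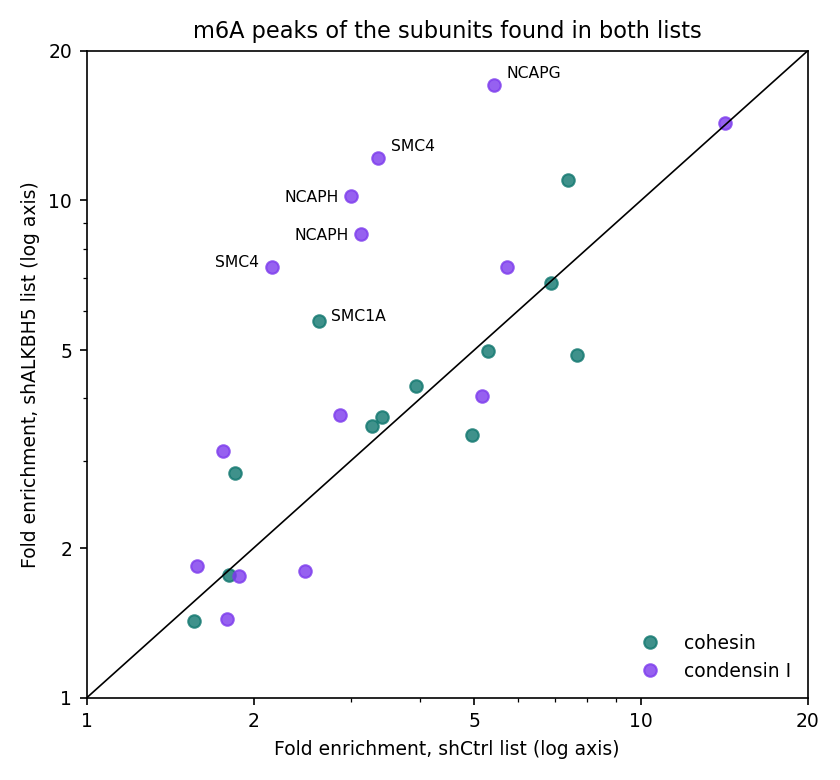
Fold enrichment of IP over input, as the peak caller gave it, for the 26 one-to-one pairs of member peaks, with the shCtrl list on the x axis, the shALKBH5 list on the y axis (both log axes) and a line of equal values. The named peaks are those at least 2 times higher in the shALKBH5 list, among which NCAPG has the highest shALKBH5 fold enrichment, 17.1 against 5.43, and SMC4 the highest ratio, 3.63.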

How the data were processed

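Input RNA-Seq and m6A MeRIP-Seq libraries of A375 cells with shALKBH5 or shCtrl were used, 3 per group and kind. Expression was deposited by the authors in FPKM for each input library. The authors' peak lists, 1 per group, hold a fold enrichment of IP over input, and a log10 p and log10 FDR that were treated as a score. By the paper's methods the authors quantified expression with edgeR. The aligner, the read counter, the peak caller and how replicates were joined for peaks are not given in the sources used here. The labels name a mouse build (mm10), but of 21699 gene symbols compared, 99.9% overlapped the span of the same symbol in RefSeq GRCh38.p14, so the coordinates were taken as human. Peak starts count from 0 in the deposited lists and were written from 1. The deposited columns with the authors' own fold changes, p-values, q-values and FDR of expression and of compared peaks were not used. No column was left unmatched.

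Genes averaging 0.5 FPKM or more across both groups' input libraries were tested with limma 3.58.1 (lmFit, eBayes with trend) in R 4.3.3 on log2(FPKM + 0.1), which understates the change of low genes, two-sided with Benjamini-Hochberg adjustment over all tested genes. Single genes and log2 ratios of pairs were tested by exact permutation of the libraries, two-sided. Peaks were overlapped with bedtools 2.31.1. Tables were read in R through the data.table package (1.17.8) and with pandas 2.3.3 in Python 3.11.15, permutations were enumerated in Python with numpy 2.4.6, exact binomial intervals came from scipy 1.17.1, and plots from matplotlib 3.10.9. The steps were tested on simulated data. Low FPKM values showed no steps from which depth could be read, the commonest ratio between replicates making up at most 0.452% of low values, and no libraries shared more than 0.123% of their values.

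The members and lists were chosen with earlier results of these data known. Named are ALKBH5, all members, all genes of the condensin II, meiotic cohesin, and loading and release lists, and of each other list the 2 called genes with the largest absolute log2 fold change, the most abundant gene and any gene called against most of its list, as well as the markers and the tested gene with the nearest profile to each member. ESCO1, TOP2B, SMC5, SMC6, SGO1, ASPM, HMMR, TTK and the genes that overlap members were named after their values were seen. The values of 1 gene that this rule names are not reported here. Alternatives tried were 1 or 0.01 added to FPKM, testing all genes, a minimum of 1 FPKM, rescaled libraries, a replicate block, no trend, each library left out, stricter peaks and a reciprocal overlap of 50%. Sequences are from RefSeq (GRCh38.p14). Peak sequences were not examined, and the IP libraries entered only through the peak lists.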

Additional observations from a re-analysis of the deposited data

How the results depend on the processing

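All 10 members had lower values in shALKBH5 cells under each alternative that gave a value, and 6 of them (SMC1A, RAD21, SMC4, NCAPD2, NCAPG and NCAPH) passed the threshold under each. The number of members called ranged from 6 to 10, against 8 as reported, and of all tested genes from 6871 to 8231, against 7917. With no filter on low values SMC3 (-0.69, limma adjusted p = 0.0871) and SMC2 (-0.75, limma adjusted p = 0.0931) did not pass, where more genes were tested. Under the filter at 1 FPKM, SMC2, NIPBL, PDS5B and HDAC8 gave no value. After rescaling of the libraries STAG1 (-0.60) and STAG2 (-0.49) passed, HDAC8 turned to -0.0289 and NSMCE1 to -0.00815, and the median of all tested genes was 0.01 in place of 0.09. When single libraries were left out, the log2 fold change ranged from -0.84 to -0.46 for SMC3, from -0.70 to -0.34 for STAG1, from -0.58 to -0.29 for STAG2 and from -1.002 to -0.58 for SMC2. It ranged from -0.28 to 0.0140 for NIPBL, from -0.00401 to 0.18 for WAPL and from -0.0473 to 0.23 for PDS5A, and the difference between SMC1A and SMC3 ranged from -0.27 to 0.0208. The alternatives for ALKBH5 and the partner genes were added after the data were seen. The cause of these shifts was not tested.

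With the replicate number as a block, SMC2 was at -0.75 with a limma adjusted p of 0.0565, 7 members were called, and 7271 of all tested genes. Deviations of libraries with the same number correlated at 0.02, -0.05 and 0.06, and not every library correlated best with its own number. Correlations between libraries with different numbers were as near to 0, from -0.06 to 0.04. Whether the numbers pair the libraries therefore cannot be told from these values.

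In a stricter set (fold enrichment from 2 up, FDR 0.01 or lower) 22 member peaks of 38 remained in the shALKBH5 list and 24 of 37 in the shCtrl list, 17 of each overlapping (77.3% and 70.8%, whole lists 82.1% and 83.6%). With a reciprocal overlap of 50%, 23 of each overlapped (60.5% and 62.2%, whole lists 51.6% and 53.7%). The depth of the libraries is unknown and limits the low values of SMC2, STAG2 and NCAPG by an amount that cannot be given.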
